A study of Mus musculus with 12 samples.

Results

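The 8 mouse genes of the neuregulin and ERBB system, 4 ligands (Nrg1, Nrg2, Nrg3 and Nrg4) and 4 receptors (Erbb2, Erbb3, Erbb4 and Egfr), were examined in sorted spiral ganglion neurons, the cochlear neurons that relay sound to the brainstem. They were chosen by gene symbol, and all 8 had a row among the 25674 Ensembl identifiers of the count table. Each of 12 libraries was made from 100 sorted cells of both inner ears of 1 embryo at E14.5 (embryonic day), selected for the red fluorescent reporter tdTomato. All embryos, controls included, carried Neurod1Cre, a transgene that places Cre recombinase under Neurod1 regulatory sequence, and the Rosa26tdTOM reporter, which stays on in every cell that has expressed Cre and in its descendants. The 6 control libraries had the genotype Neurod1Cre; Rosa26tdTOM. The 6 ISL1CKO libraries had in addition both Isl1 alleles flanked by loxP sites (Isl1loxP/loxP), so that Cre can delete part of this LIM homeodomain transcription factor gene in cells of the Neurod1 lineage. The mice were of a mixed C57BL/6/sv129 background and embryos of either sex were used. A label tag calls the numbered libraries technical replicates while the design text calls them biological, and they were treated as separate embryos.

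Neuregulins are growth factors that carry an EGF-like domain and act on the ERBB family of receptor tyrosine kinases. ERBB3 and ERBB4 bind neuregulins, ERBB2 has no known ligand of its own and serves as their partner, ERBB3 has little kinase activity and depends on that partner, and EGFR responds mainly to other EGF family ligands. In peripheral nerves, NRG1 made by neurons and displayed on axons signals to ERBB2 and ERBB3 on Schwann cells and their precursors, which need it to survive, migrate and myelinate. In the developing inner ear this exchange links spiral ganglion neurons with the glia that accompany them.

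The receptor-binding part that makes these ligands a family is the EGF-like domain, and its coding sequence is shown for Nrg1, Nrg3 and Nrg4. The fall of Nrg1 and the low, variable Nrg3 are the main results, and Nrg4 is shown beside them. The sequence of Nrg2 is not shown. Each stretch runs 5′ to 3′ on the coding strand from the first to the last cysteine codon of the domain, with the 6 cysteine codons in capitals. Each is read from the gene's longest coding transcript with a start codon in GENCODE release M21 on GRCm38.
Nrg1: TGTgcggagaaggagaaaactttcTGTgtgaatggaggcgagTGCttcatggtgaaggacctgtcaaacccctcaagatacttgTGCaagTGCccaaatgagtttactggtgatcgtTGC
Nrg3: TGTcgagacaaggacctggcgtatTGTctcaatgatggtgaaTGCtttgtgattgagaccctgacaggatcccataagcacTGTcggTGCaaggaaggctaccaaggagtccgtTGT
Nrg4: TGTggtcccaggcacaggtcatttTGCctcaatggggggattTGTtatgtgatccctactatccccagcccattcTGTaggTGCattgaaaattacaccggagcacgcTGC
The stretches are 120, 117 and 111 bases long, and each spans 2 exons of the minus strand. They lie at chr8:31837698-31849398 for Nrg1, chr14:38668261-39012054 for Nrg3 and chr9:55242177-55280969 for Nrg4. In all 3 genes the first 2 gaps between cysteines hold 7 and 5 residues and the last 2 hold 1 and 8. They differ in the gap between the third and the fourth cysteine, which holds 13 residues in Nrg1, 12 in Nrg3 and 10 in Nrg4. The cysteine pattern of the domain was found in all 10 such coding transcripts annotated for Nrg1, all 3 of Nrg3 and both of Nrg4. Whether these transcripts share the printed bases was not compared. Reads were counted per gene, so isoforms that differ within or beside this domain cannot be told apart here.

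Library totals ran from 11895603 to 13857480 counts. Levels are given as CPM, a gene's counts relative to the scaled library size, and 3 counts, taken as the limit of detection, corresponded to 0.219 to 0.25 CPM. Isl1 itself did not separate the groups: it lay between 1050 and 1589 CPM in the ISL1CKO libraries and between 1171 and 1777 CPM in the controls (edgeR's quasi-likelihood test, adjusted p = 0.46). Counts were summed per gene and do not resolve the floxed segment, so the genotype rests on the labels. Pan-neuronal genes were abundant in all libraries, with Tubb3 at 2769 to 4630 CPM. Gata3, a transcription factor of spiral ganglion neurons, was lower in the ISL1CKO libraries, at 18.2 to 528 CPM against 1008 to 1657 CPM (adjusted p = 0.00961). ISL1CKO 2, 3 and 5 held both Xist, transcribed from the inactive X chromosome, at 62.9 to 132 CPM, and the Y-linked Ddx3y, at 44.5 to 95.9 CPM. No control library held both at such levels. Transcripts of both sexes conflict with an origin of each of these libraries in a single embryo, and why they occurred was not tested. Results are therefore also given without ISL1CKO 2, 3 and 5.

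Nrg1 was by far the most abundant member in every library, and it was lower in the ISL1CKO libraries. In control replicates 1 to 6 it was at 609, 591, 530, 618, 570 and 542 CPM. In ISL1CKO replicates 1 to 6 it was at 488, 425, 472, 458, 400 and 389 CPM. Every ISL1CKO library lay below every control library, and the spread within each group was small (coefficient of variation 6.2% in controls and 9.16% in ISL1CKO). Controls averaged 577 ± 35.8 and ISL1CKO 439 ± 40.2 CPM (SD, n = 6 per group). This fall of 23.9%, a log2 fold change of -0.39 (SE 0.072), passed edgeR's quasi-likelihood test after Benjamini-Hochberg adjustment (adjusted p = 0.00218). Each SE given with a log2 fold change is the size of that change divided by the square root of the test's F statistic. Nrg1 (ENSMUSG00000062991) lies on chromosome 8 at 31814551 to 32884029, minus strand, with 18 annotated transcripts. It shares 482 exonic bases with Gm26578 on the opposite strand, and since the strand setting of the counting is not given in the sources used here, reads of the pair cannot be separated.

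Nrg1 was the only one of the 6 tested members that passed, or 16.7%, against 10.2% of the 14813 genes tested across the transcriptome. Lower calls made up 5.19% of tested genes and higher calls 5.01%. The groups did not overlap in 6.78% of tested genes, with all ISL1CKO libraries lower in 3.65%, as for Nrg1, and all higher in 3.13%. The median log2 fold change of the 6 members was -0.12, and that of all tested genes was 0.0045. A count of 1 in 6 is too small to set the family apart from this background. The Nrg1 call held in each of the 23 alternative analyses, with log2 fold changes from -0.43 to -0.36 and adjusted p from 1.99e-05 to 0.0393. The highest p was that without ISL1CKO 2, 3 and 5 (edgeR, log2 fold change -0.38).

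The summed level of 12 neuronal marker genes moved in the same direction as Nrg1. It ran from 13564 to 15895 CPM in the ISL1CKO libraries and from 16156 to 18387 CPM in the controls, a difference of -0.22 on the log2 scale (exact permutation test, two-sided, n = 6 per group, p = 0.00216, the smallest these 924 splits can give; adjusted p = 0.00758 over 7 marker lists). Without ISL1CKO 2, 3 and 5 it was -0.16 (exact permutation, adjusted p = 0.0833). The mean of log2(CPM + 1) over the list, which gives each gene the same weight, differed by -0.67 (exact permutation, adjusted p = 0.0152). Within that list 4 genes were called lower and 2 higher. The neurofilament genes Nefl and Nefm, the RNA-binding protein gene Elavl4 and Gata3 fell, whereas Stmn2, a regulator of microtubules in growing axons, and Neurod1 rose. The defining pan-neuronal markers Tubb3 and Elavl3 differed by 0.30 and 0.024 on the log2 scale (adjusted p of 0.101 and 0.904 in edgeR). The part of neuronal RNA content in the fall of Nrg1 was not tested, and in pooled cells a smaller number of expressing cells cannot be told apart from less RNA per cell.

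**Figure D1:**
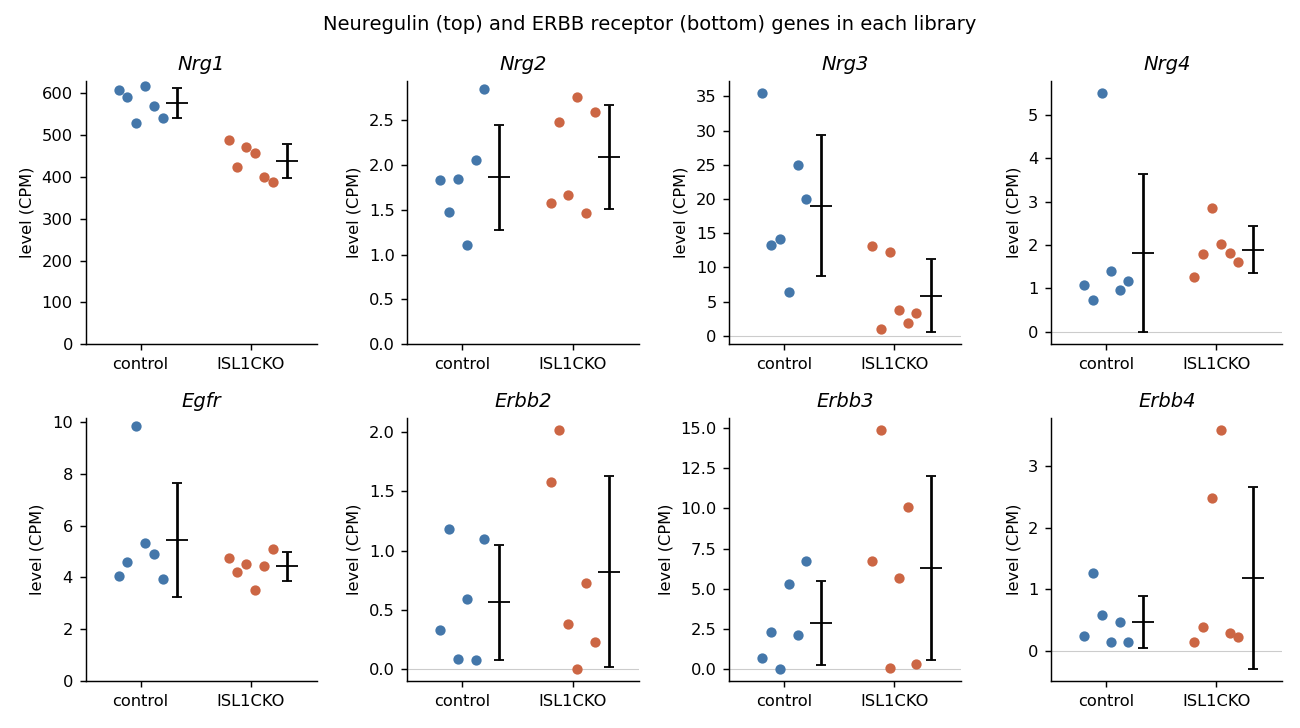
Level in CPM (vertical axis, linear, a separate scale in each panel) of the 4 neuregulin genes in the top row and the 4 receptor genes in the bottom row. Points are the 6 libraries of each group in replicate order, and the bar beside them is the mean ± SD. Nrg1 runs from 389 to 488 CPM in ISL1CKO and from 530 to 618 CPM in controls with no overlap, whereas the groups overlap for the other 7 genes.

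Nrg3, a ligand known to act through ERBB4, was lower on average in the ISL1CKO libraries, but with a wide spread. In control replicates 1 to 6 it was at 35.5, 13.2, 14.1, 6.37, 25 and 20 CPM. The ISL1CKO replicates 1 to 6 were at 13.1, 1.01, 12.3, 3.73, 1.90 and 3.28 CPM. ISL1CKO 1 and 3 came close to controls 2 and 3, and control 4 lay inside the ISL1CKO range, so the groups overlapped. Controls averaged 19 ± 10.2 and ISL1CKO 5.89 ± 5.38 CPM (SD, n = 6 per group), which is a log2 fold change of -1.69 (SE 0.58). This did not pass in edgeR's quasi-likelihood test (unadjusted p = 0.0104, adjusted p = 0.0804).

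The call for Nrg3 depended on the analysis. The DESeq2 Wald test called it at the same log2 fold change of -1.69 (adjusted p = 0.0137). Limma-voom with sample weights called it at -2.22 (adjusted p = 0.0333), and edgeR called it without ISL1CKO 1 (-2.09, adjusted p = 0.0387) or without ISL1CKO 3 (-2.04, adjusted p = 0.0461). With the summed level of 11 macrophage markers as a covariate, edgeR gave -2.17 (adjusted p = 0.0351). That level ran from 1.92 to 432 CPM in controls and from 1.46 to 750 CPM in ISL1CKO, and ISL1CKO 1 and 3, the ISL1CKO libraries highest in Nrg3, held 145 and 112 CPM of it, between the 1.46 CPM of ISL1CKO 5 and the 750 CPM of ISL1CKO 4. Of its defining markers, C1qa was at 0 counts in 3 libraries, Csf1r in 2 and C1qb in 1, Ptprc had counts in all 12, and none of the 10 tested markers was called. Without ISL1CKO 2, 3 and 5 the change was -1.51 (edgeR adjusted p = 0.204). The direction was the same in all 23 alternatives, with values from -2.22 to -1.42. Nrg3 (ENSMUSG00000041014) occupies bases 38368952 to 39473088 of chromosome 14 on the minus strand and shares no exonic base with another annotated gene.

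The remaining ligands, Nrg2 and Nrg4, were near the low end of the measured range. Nrg2 (chromosome 18, 36017652 to 36197380), which like NRG1 binds ERBB3 and ERBB4, ran from 1.11 to 2.85 CPM in controls and from 1.46 to 2.76 CPM in ISL1CKO, with medians of 1.83 and 2.07 CPM. The groups differed by 0.17 on the log2 scale (SE 0.38; edgeR adjusted p = 0.842). The groups covered nearly the same range. Nrg4 (chromosome 9, 55220222 to 55326844), a ligand of ERBB4, was at 1.08, 0.74, 5.51, 1.41, 0.951 and 1.17 CPM in control replicates 1 to 6. In ISL1CKO replicates 1 to 6 it was at 1.27, 1.78, 2.86, 2.02, 1.82 and 1.6 CPM. Control 3 lay far above the other controls, and each of the remaining controls except control 4 lay below all ISL1CKO libraries. The log2 fold change of 0.068 (edgeR adjusted p = 0.959) became 0.81 without control 3 (adjusted p = 0.28). It was below 0 in 6 of 22 alternatives, so no direction is given. Nrg4 shares 368 exonic bases with Fbxo22 on the opposite strand, and Fbxo22 had 11640 counts over the 12 libraries, so the Nrg4 counts are uncertain.

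The glial receptor gene Erbb3 was low in these neuron-sorted libraries and varied strongly between them. In control replicates 1 to 6 it was at 0.665, 2.29, 0, 5.26, 2.14 and 6.73 CPM. The ISL1CKO replicates 1 to 6 were at 6.73, 14.9, 0.0753, 5.68, 10.1 and 0.305 CPM. Control 3 had no count, which allows up to 0.25 CPM, and ISL1CKO 3 had 1 count. Both groups therefore ran from next to nothing to several CPM. Controls averaged 2.85 ± 2.63 and ISL1CKO 6.29 ± 5.72 CPM (SD, n = 6 per group), and the log2 fold change of 1.14 (SE 0.99) did not pass (edgeR adjusted p = 0.543). Erbb3 (ENSMUSG00000018166) lies on chromosome 10 at 128567523 to 128589652, minus strand, with 1 annotated transcript and no exonic overlap.

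Most libraries high in Erbb3 were also high in the Schwann-lineage transcript Sox10. Sox10, the transcription factor that defines Schwann cells and their precursors, was at 0.332, 0.074, 0.167, 1.41, 7.13 and 4.83 CPM in control replicates 1 to 6. In ISL1CKO replicates 1 to 6 it was at 5.46, 13.6, 0.0753, 4.85, 9.48 and 0.229 CPM. ISL1CKO 2 and 5 held the most of both transcripts, and controls 1 and 3 and ISL1CKO 3 and 6 had under 1 CPM of each. Control 2 had Erbb3 with almost no Sox10, control 4 had 5.26 CPM of Erbb3 with 1.41 CPM of Sox10, and control 5 had more Sox10 than Erbb3. The sum of the 12 Schwann cell and precursor markers ran from 30.2 to 239 CPM in controls and from 37.9 to 518 CPM in ISL1CKO. This was a difference of 0.80 on the log2 scale (exact permutation p = 0.346, adjusted p = 0.492, n = 6 per group). Among controls the sum was highest in control 5 and lowest in control 2, where Erbb3 was at 2.14 and 2.29 CPM. Among ISL1CKO libraries it was highest in ISL1CKO 2 and lowest in ISL1CKO 3, as was Erbb3. None of the 7 tested genes of this list was called. Of its defining markers, Foxd3 was at 0 counts in 1 library, whereas Sox10 had counts in all 12. With this summed level as a covariate, the Erbb3 log2 fold change was -0.72 in place of 1.14 (edgeR adjusted p = 0.706), so its sign turned while the result stayed short of the threshold. Nrg1 stayed at -0.39 in the same fit (adjusted p = 0.00553) and Nrg3 at -1.63 (adjusted p = 0.111).

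**Figure D2:**
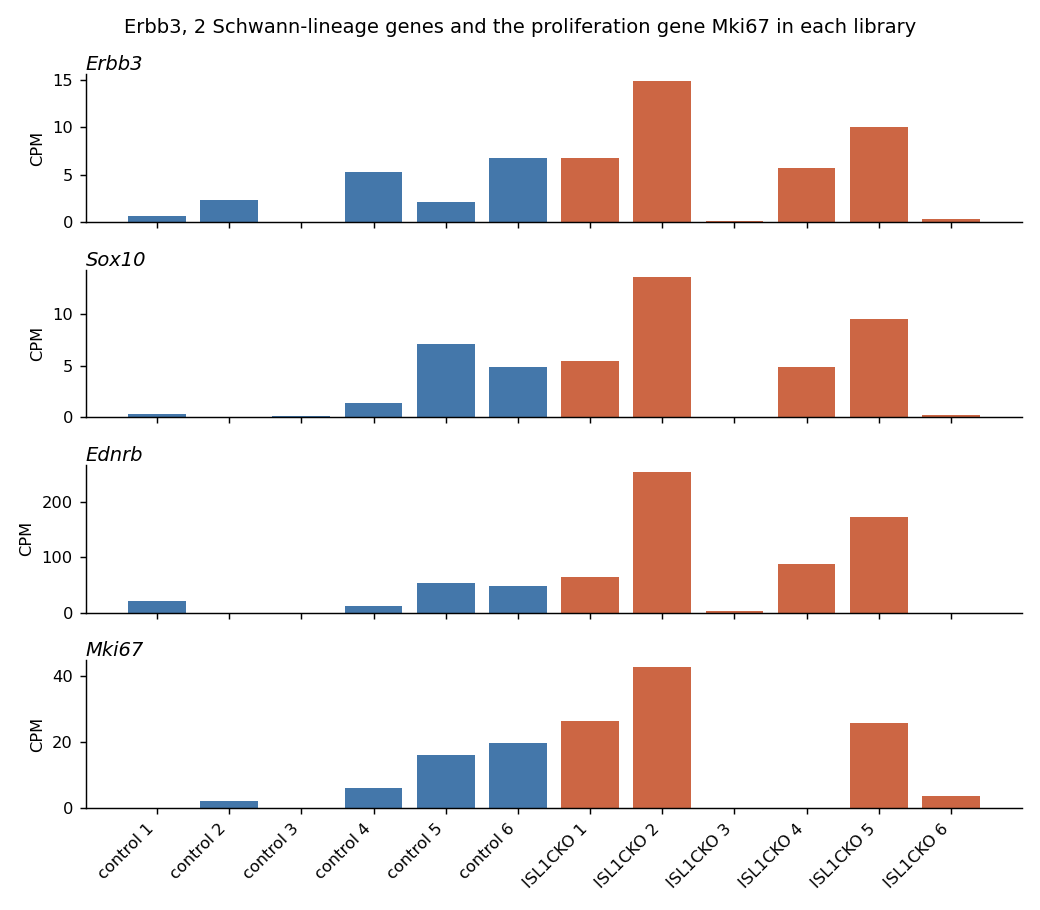
Level in CPM (vertical axes, linear from 0) of Erbb3, of the Schwann-lineage genes Sox10 and Ednrb and of the proliferation gene Mki67 in each of the 12 libraries (horizontal axis; blue for control, orange for ISL1CKO). Erbb3 and Sox10 are both highest in ISL1CKO 2, at 14.9 and 13.6 CPM, and both lie under 1 CPM in controls 1 and 3 and in ISL1CKO 3 and 6.

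Proliferation transcripts also varied widely between the libraries. The sum of 6 markers of cycling cells ran from 7.64 to 124 CPM in controls and from 5.95 to 305 CPM in ISL1CKO (exact permutation adjusted p = 0.492, n = 6 per group), and it was highest in ISL1CKO 2. It did not follow Erbb3 in every library: ISL1CKO 4, with 5.68 CPM of Erbb3, held 8.14 CPM of these markers, and ISL1CKO 6, with 0.305 CPM of Erbb3, held 56 CPM. After group means were subtracted, the protein-coding genes most like Erbb3 across the 12 libraries were Ncaph (Pearson's r = 0.928), Mcm2 (0.91), Abraxas2 (0.903), Kif11 (0.876) and Supv3l1 (0.867). They were picked as the highest of 9410 candidates with a mean of at least 3 on the log2 CPM scale, so these values are a description. Ncaph encodes a condensin subunit, Mcm2 a subunit of the replicative helicase and Kif11 a mitotic kinesin. Sox10 could not enter this ranking because its mean was below the minimum.

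Erbb2, the shared receptor partner, and Erbb4, the neuregulin receptor known from many neuron types, did not pass the expression filter and have no value in the test. Erbb2 (chromosome 11, 98412470 to 98437716) was at 0.332, 1.18, 0.0834, 0.593, 0.0793 and 1.10 CPM in control replicates 1 to 6. The ISL1CKO replicates 1 to 6 were at 1.58, 2.02, 0.376, 0, 0.729 and 0.229 CPM, and 4 of the 12 libraries had at most 3 counts. ISL1CKO 2 was highest here too, as for Erbb3, but ISL1CKO 4, with 5.68 CPM of Erbb3, had no count of Erbb2. Erbb4 (chromosome 1, 68032186 to 69108059) was at 0.249, 1.26, 0.584, 0.148, 0.476 and 0.146 CPM in control replicates 1 to 6. In ISL1CKO replicates 1 to 6 it was at 0.158, 0.388, 2.48, 3.58, 0.292 and 0.229 CPM, and 5 libraries had at most 3 counts. It stood out only in ISL1CKO 3 and 4, with 33 and 48 counts. Of these, ISL1CKO 3 had 1 count of Erbb3 and ISL1CKO 4 had 76. With no filter applied, the log2 fold changes were 0.53 for Erbb2 and 1.31 for Erbb4 (adjusted p of 0.84 and 0.481 in edgeR). No difference in either gene was detected.

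Egfr, the receptor for EGF and related ligands, was detected in every library at a low and mostly even level. In control replicates 1 to 6 it was at 4.07, 4.59, 9.84, 5.33, 4.91 and 3.95 CPM, and in ISL1CKO replicates 1 to 6 at 4.75, 4.19, 4.52, 3.51, 4.45 and 5.11 CPM. Control 3 was again far above the rest, and without it the groups covered nearly the same range. On the log2 scale the groups differed by -0.30 (SE 0.30; edgeR adjusted p = 0.608) over all libraries and -0.055 without control 3 (adjusted p = 0.936). Egfr (ENSMUSG00000020122) lies on chromosome 11 at 16752203 to 16918158, plus strand. Its coefficient of variation was 12.3% in ISL1CKO, against 90.9% for Erbb3 in the same libraries.

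**Figure D3:**
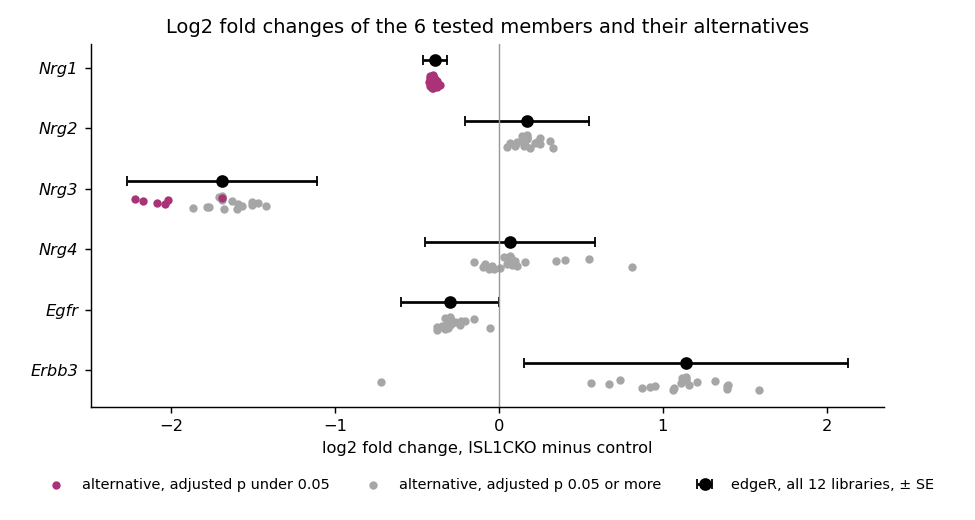
Log2 fold change of ISL1CKO minus control (horizontal axis) for the 6 tested members. Black points with bars are the edgeR values ± SE over all 12 libraries, with the SE derived from the F statistic. Small points are the alternative analyses, magenta where the adjusted p was under 0.05. Nrg1 stays between -0.43 and -0.36 with every alternative past the threshold, Nrg3 is past it in 6 of 23 alternatives, and the 4 other genes in none.

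To compare levels between genes, CPM were divided by the length of each gene's annotated exons, since a longer transcript yields more fragments. That length joins the exons of all annotated transcripts, 18 for Nrg1 and 1 for Erbb3. Which transcripts were expressed was not determined, so the order between genes is approximate. In controls the order was Nrg1 at 55.7 ± 3.46, Nrg3 at 2.79 ± 1.5, Nrg2 at 0.593 ± 0.188, Egfr at 0.481 ± 0.195 and Erbb3 at 0.474 ± 0.437 CPM per kb. Nrg4 at 0.298 ± 0.3, Erbb2 at 0.108 ± 0.0936 and Erbb4 at 0.0386 ± 0.0342 CPM per kb followed (SD, n = 6). Nrg1 exceeded Nrg3 20-fold and Nrg3 exceeded Nrg2 4.71-fold, and neither pair's ranges over the control libraries overlapped. From Nrg2 down to Erbb4, the ranges of each pair of neighbours overlapped. In the ISL1CKO libraries Nrg1 was again first, at 42.4 ± 3.88 CPM per kb, and Erbb3 (1.05 ± 0.95), Nrg3 (0.864 ± 0.789) and Nrg2 (0.666 ± 0.186), next in order, had overlapping ranges. There Nrg2 lay above Egfr (0.39 ± 0.0479) with no overlap, and the lower neighbours Egfr, Nrg4, Erbb2 and Erbb4 overlapped. Nrg1 stood above 91.1% of the 12280 tested protein-coding genes on this scale, and Egfr above 6.28%.

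Nrg1 made up between 90.8% and 97.5% of the summed neuregulin level per kb in each control library and between 94.2% and 97.4% in each ISL1CKO library. The 4 ligands summed to 54.7 to 64.8 CPM per kb in controls and to 39.1 to 49.8 in ISL1CKO. The 4 receptors summed to only 0.554 to 1.69 CPM per kb in controls and to 0.564 to 3.27 in ISL1CKO. The sorted libraries thus held abundant ligand transcript, nearly all of it Nrg1, and little receptor transcript in both groups. Which of the pooled cells held these transcripts was not tested.

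**Figure D4:**
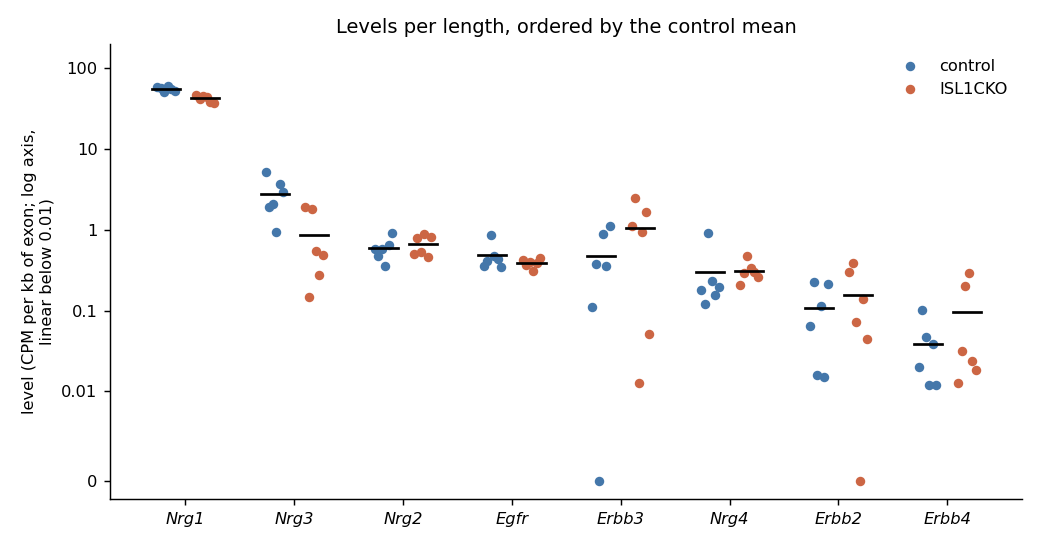
Level in CPM per kb of exon (vertical axis, logarithmic above 0.01 and linear below it) of the 8 genes, ordered by their control mean. Points are single libraries and black lines are group means. Nrg1, with means of 55.7 and 42.4 CPM per kb, lies above every other gene in all 12 libraries, and the 4 receptors lie under 3 CPM per kb throughout.

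The genes whose levels moved most like Nrg1 across the 12 libraries, after group means were subtracted, were Alkbh8 (Pearson's r = 0.924), Smyd5 (0.915), Napb (0.905), Coa4 (0.885) and Gemin2 (0.874). For Nrg3 they were Lancl1 (0.888), Kif21a (0.877), Sdr39u1 (0.874), Hmox2 (0.872) and Cyb5a (0.864). For Egfr they were Cnot6 (0.956), Uhrf2 (0.941), Ncl (0.922), Tenm2 (0.919) and Zswim8 (0.913). The highest values for Nrg2 were those of Scly (0.917) and Sphk2 (0.856), and for Nrg4 those of Tpt1 (0.94) and Snrpe (0.938). No gene appeared among the first 5 of more than 1 member. For each member the genes were picked as the highest of 9410 candidates, so these values are a description. Nrg4 and Egfr were far higher in control 3 than in the other controls. The part of that library in their correlations was not tested.

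The other genes of the pathway were taken from a list of 95, of which 93 had a row and 84 were tested. The list holds ligands of EGFR, enzymes that release ligands from the membrane, receptor inhibitors, scaffolds, intracellular adaptors and kinases, and genes that respond to receptor tyrosine kinase signalling. Of the 84, 8 were called lower and 3 higher in edgeR's quasi-likelihood test, or 13.1% against the 10.2% of all tested genes, with a median log2 fold change of 0.093. Without ISL1CKO 2, 3 and 5 only Mapk3, Myc, Ccnd1, Etv1 and Etv5 remained called, and the DESeq2 Wald test called 18 genes of the list.

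The response and feedback genes held 5 of the 11 calls: 4 of 13 tested genes were lower, 1 was higher and the median log2 fold change was -0.90. That is 38.5% called, against 10.2% of all tested genes. The list was chosen with earlier results of these data known, so this share is a description and no test of enrichment. The response and feedback genes respond to many growth factor receptors, not to ERBB receptors alone. The 3 members of the PEA3 family of ETS transcription factors, which act downstream of receptor tyrosine kinases in developing neurons, all fell. Etv5 was at 160, 130, 109, 150, 90.2 and 125 CPM in control replicates 1 to 6 and at 70.6, 61.8, 39.4, 41.2, 32.9 and 42.6 CPM in ISL1CKO replicates 1 to 6. All ISL1CKO libraries lay below all controls (log2 fold change -1.41, SE 0.19, edgeR adjusted p = 2.00e-04). Etv1 was at 25.6 to 36.4 CPM in controls and at 4.19 to 14.7 CPM in ISL1CKO (log2 fold change -1.88, adjusted p = 6.20e-04). Etv4 was at 46.8 to 94.4 CPM in controls and at 1.46 to 40.9 CPM in ISL1CKO (log2 fold change -2.27, adjusted p = 0.0131), and its call was lost without ISL1CKO 2, 3 and 5 (adjusted p = 0.0784).

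Myc, a growth-promoting transcription factor, went from 69.4 to 107 CPM in controls to 8.61 to 31.9 CPM in ISL1CKO (log2 fold change -1.88, SE 0.24, edgeR adjusted p = 1.23e-04). Ccnd1, which encodes cyclin D1, went the other way, from 19.8 to 65.8 CPM in controls to 68.7 to 354 CPM in ISL1CKO (log2 fold change 2.21, adjusted p = 0.00174). Ccnd1 shares 1100 exonic bases with LTO1 on the opposite strand, so its counts are uncertain. The feedback inhibitors Spry1 and Spry2 had log2 fold changes of -1.83 and -1.09 that did not pass (adjusted p of 0.1 and 0.0605), and neither did Dusp6 at -0.90 (adjusted p = 0.176). The immediate early gene Fos and the Schwann cell transcription factor gene Egr2 were too low to test.

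Among adaptors and kinases 3 of 37 tested genes were lower and 1 was higher, or 10.8%, close to the 10.2% of all tested genes. Mapk3, which encodes the kinase ERK1, was at 184 to 205 CPM in every control and at 82.0 to 133 CPM in ISL1CKO (log2 fold change -0.84, SE 0.11, edgeR adjusted p = 1.90e-04). The adaptor gene Crk and the transcription factor gene Stat3 were lower as well, with log2 fold changes of -0.45 and -0.54 (adjusted p of 0.00377 and 0.0302). Pik3r3, a regulatory subunit of PI3-kinase, was higher at 0.70 (adjusted p = 0.0121), and it shares 1289 exonic bases with an annotated gene on the same strand, Gm49337. The calls of Crk, Stat3 and Pik3r3 were lost without ISL1CKO 2, 3 and 5 (adjusted p of 0.0601, 0.138 and 0.175). That of Stat3 was also lost without ISL1CKO 5, control 2 or control 4 (0.0569, 0.0557 and 0.0612).

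Of 12 tested ligand processing enzymes, 1 was higher and 1 lower. Adam17, the sheddase that releases EGF family ligands and neuregulins from the cell surface, went from 20.1 ± 2.5 to 32.3 ± 6.11 CPM (SD, n = 6), or by 0.68 on the log2 scale (edgeR adjusted p = 0.0114). All ISL1CKO libraries lay above all controls, and the gene shares 311 exonic bases with Iah1 on the opposite strand. Bace1, the protease that cleaves NRG1 at the axon surface, had a log2 fold change of 0.13 (adjusted p = 0.467), and the sheddase gene Adam10 one of -0.055 (adjusted p = 0.872). Psenen, a subunit of gamma-secretase, was lower at -0.46 (adjusted p = 0.0238). Bace1 shares 975 exonic bases with Rnf214 and Psenen 119 with U2af1l4, both on the opposite strand. The calls of Adam17 and Psenen were lost without ISL1CKO 2, 3 and 5 (adjusted p of 0.0646 and 0.0747), and that of Psenen also without ISL1CKO 5 or without control 6 (0.0572 and 0.0563).

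No gene was called among the 11 tested receptor inhibitors and turnover genes, the 5 scaffolds, the 3 other EGF family ligands or the 3 other proteins with an EGF domain. The largest change among these that did not pass was that of Cspg5, a neural proteoglycan with an EGF-like domain, at 0.96 (edgeR adjusted p = 0.249). The ERBB inhibitor gene Errfi1 had a log2 difference of 0.30 (adjusted p = 0.448), Rnf41, whose product degrades ERBB3, one of 0.22 (adjusted p = 0.351), and the scaffold gene Erbin one of 0.16 (adjusted p = 0.635). Of the other ligands, Egf had a log2 fold change of -0.60 (adjusted p = 0.13), Tgfa one of 0.60 (adjusted p = 0.622) and Hbegf one of 0.021 (adjusted p = 0.984), while Areg and Ereg had no row in the table.

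**Figure D5:**
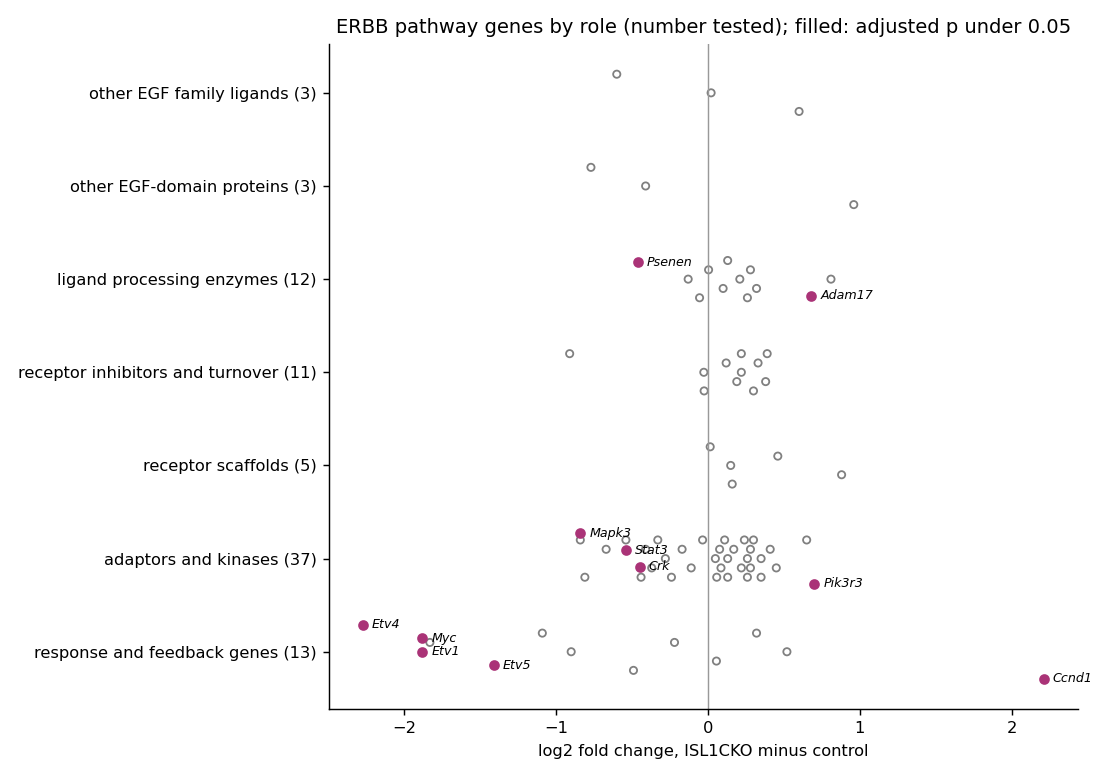
Log2 fold change of ISL1CKO minus control (horizontal axis) for the 84 tested pathway genes, grouped by role with the number tested in brackets. Filled points have an edgeR adjusted p under 0.05 and are named, and open points do not. The response and feedback genes hold 5 of the 11 called genes, with Etv4, Myc, Etv1 and Etv5 between -2.27 and -1.41 and Ccnd1 at 2.21.

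Markers of other cell types differed in 1 further list. The summed level of 10 mesenchyme markers was 25.7 to 51.0 CPM in ISL1CKO and 6.59 to 17.5 CPM in controls (exact permutation p = 0.00216, adjusted p = 0.00758, n = 6 per group; adjusted p = 0.0833 without ISL1CKO 2, 3 and 5). Of its members, Col3a1 and Fn1 were called higher. The other defining markers were too low to test: Col1a1 stayed under 3 CPM in every library, and Twist1 went the opposite way, from 0.25 to 2.37 CPM in controls to 0 to 0.0776 CPM in ISL1CKO, with no overlap and 0 counts in 5 ISL1CKO libraries. The mean of log2(CPM + 1) over the list differed by 0.46 (exact permutation, adjusted p = 0.0152), against 1.70 for the summed level. The mesenchyme level differed in the same libraries as Nrg1 and the response genes, and its part in those results was not tested.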

How the data were processed

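The authors deposited raw read counts per Ensembl gene, with no normalization, for all 12 libraries. Per the submitters' processing notes, cutadapt 1.18, Bowtie 1.2.2, STAR 2.7.0c, featureCounts and GRCm38.p6 were used; their roles, the annotation and the strand setting are not given in the sources used here. Symbols, exon lengths and coordinates came from GENCODE M21. All 25674 rows had at least 10 counts in total. ISL1CKO was compared with control in edgeR 4.0.16 (TMM scaling, filterByExpr with a minimum count of 10, robust quasi-likelihood test, Benjamini-Hochberg adjustment over 14813 genes, threshold 0.05). Limma 3.58.1 and DESeq2 1.42.0 served as alternatives, with other scalings and filters, marker covariates and libraries left out. Marker lists were compared as log2 of summed CPM plus 1. In counts simulated for this comparison (14713 genes tested), edgeR recovered 44.3% of genes changed by 1 and 69.6% of genes changed by 2 on the log2 scale, with 6.14% of its calls false; DESeq2 had 23.8% of calls false. No pair of libraries agreed within sampling noise (lowest chi-square per degree of freedom 20.6). Pairs with control 3 had values of 40.3 to 53.3, against 21.5 to 30.9 for the other control pairs. Pairs with ISL1CKO 3 had 32.4 to 47.8, against 20.6 to 34.2 for the other ISL1CKO pairs. P-values set the group difference against the spread between these libraries, and the conflicting labels do not settle whether that is a spread between embryos. The members and gene lists were chosen with earlier results of these data known. Named were all members, Isl1, every called pathway gene, defining markers and the 5 protein-coding genes most like each tested member; pathway genes named without a call, and other markers, were chosen after their values were seen. Values of some genes in these lists are not reported here.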

Additional observations from a re-analysis of the deposited data

Results flagged for a closer look

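In control 3, Nrg4 was at 5.51 CPM, whereas the other 5 controls lay between 0.74 and 1.41 CPM; the gap to the nearest control was 0.86 of the whole range. In the same library Egfr was at 9.84 CPM, with the other controls between 3.95 and 5.33 CPM and a gap of 0.766 of the range. Of 30 group values checked in this way 2 stood apart, and chance alone gives about 1.5. Over the tested genes, pairs with control 3 had a chi-square per degree of freedom of at least 40.3. The other control pairs had at most 30.9, so this library differed from the other controls beyond these 2 genes.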

How the results depend on the processing

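Of 387 alternative values for 17 genes (the 6 tested members and the 11 called pathway genes), 363 kept their direction and side of the threshold, 11 lost the call, 6 gained it (all Nrg3) and 7 changed sign. All 34 values under the other 2 scalings kept both. The number of members called was 2 in place of 1, Nrg3 being added, with the DESeq2 Wald test, limma-voom, the macrophage covariate and the replicate block, and 1 to 2 with 1 library left out. The pathway list had 18 calls with the DESeq2 Wald test, 5 without ISL1CKO 2, 3 and 5, and 10 to 16 with 1 library left out. Over all genes, 767 were called without those 3 libraries, 2100 with the DESeq2 Wald test and 1178 to 1517 with 1 library left out, against 1511. Fewer samples entered the smaller fits, and the cause of the other shifts was not tested. Without ISL1CKO 2, 3 and 5 the neuron list difference was -0.16 and the mesenchyme difference 1.54 (exact permutation, adjusted p = 0.0833 each). As a mean of log2(CPM + 1) over the list they were -0.67 and 0.46, against -0.22 and 1.70 for the summed levels (adjusted p = 0.0152 each). The endothelium difference of 0.44 became -0.14 there, and ran from -0.061 to 0.69 with 1 library left out. Nrg4 was at -0.15 without those 3 libraries and from -0.10 to 0.81 with 1 left out, being below 0 without ISL1CKO 3 (-0.087), control 1 (-0.044), control 2 (-0.10), control 5 (-0.063) or control 6 (-0.032). Erbb3 was at -0.72 with the Schwann covariate. A minimum mean of 5 CPM gave no value for Nrg2, Nrg4, Erbb3 and Egfr. The replicate numbers did not pair the samples: same-numbered libraries correlated in their deviations at -0.056 to 0.152, and 2 of 6 numbers were their own best partner. With the replicate block 1450 genes were called, and Nrg3 was at -2.02 (edgeR adjusted p = 0.0409). Erbb2 and Erbb4 had at most 3 counts in 4 and 5 libraries, and their counts also spread widely between libraries of similar depth, from 0 to 26 and from 2 to 48.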
